A study of Mus musculus with 16 samples.

Results

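DNA replication and mitosis are described here through 57 genes, taken by symbol from the deposited gene table of 45777 genes, where all 57 were found. They were divided by role into 24 replication genes, 25 mitosis genes and 8 regulators that act before or across both phases, and all 57 passed the filter on low counts among 19189 genes tested. The study measured RNA in the epididymal white adipose tissue of male mice, the visceral fat pad beside the epididymis, with 4 groups of 4 libraries. LTA4H, or leukotriene A4 hydrolase, is the enzyme behind leukotriene B4, a lipid signal that attracts white blood cells, and the study compared mice that carry extra LTA4H in adipocytes with control mice at 2 durations of a high-fat diet.

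The Ctrl groups were control mice and the OE groups were mice with adipocyte-specific LTA4H overexpression. All animals were male, all were fed 60 kcal% fat starting at 4 weeks of age, and fat was collected at 8 weeks of age (4 weeks of diet) or at 20 weeks (16 weeks of diet). No group ate another diet, so age, time on the diet and anything that followed the collection date cannot be told apart. The promoter that drives the extra LTA4H and the strain of the control mice were not given in the sources used here. The labels number the libraries but do not say in words that each came from its own animal, so p-values measure the spread between these libraries, which may in part be technical.

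A cell that is about to divide first loads the Mcm helicase on its replication origins with the help of Cdc6 and Cdt1, then copies its DNA behind polymerases held by the Pcna clamp, while ribonucleotide reductase and thymidine enzymes supply the nucleotides. Transcription factors of the E2F family switch on these replication genes, and the mitosis genes follow later under B-Myb (Mybl2) and Foxm1, which act through promoter elements called CHR together with CCAAT boxes. Mature adipocytes rarely divide, whereas adipocyte progenitors, macrophages and vascular cells of fat tissue can. In whole tissue, more dividing cells and more of these transcripts in each cell cannot be told apart.

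The promoters of 9 members are shown as examples of how the letters are placed in each class. They include Pcna, the member with the smallest p in both age comparisons, and Cks1b, the mitosis gene that did not rise with age. Each line gives 200 bases before the first start site listed for the gene, 5′ to 3′ on its strand, from RefSeq on GRCm38.p6. For Mki67, Mcm5 and Top2a that site lies inside the RefSeq span of the gene, so part of the line is within the gene. The E2F-type letters of Mki67 lie in that part. For Mcm5, Mcm6 and Mki67 the 50 bases after the site were not found in a GENCODE transcript, so their start sites are less certain. Capitals mark matches to 4 kinds of letters, searched on both strands, and overlapping matches run together. The E2F-type letters are TTCCCGC with its relatives TTCGCGC and also TTGCCGC and lastly TTGGCGC. CHR is spelled TTTGAA, its variant is spelled TTTAAA, and the CCAAT box is spelled as its name.
Mcm5 (chr8:75109309-75109508, + strand): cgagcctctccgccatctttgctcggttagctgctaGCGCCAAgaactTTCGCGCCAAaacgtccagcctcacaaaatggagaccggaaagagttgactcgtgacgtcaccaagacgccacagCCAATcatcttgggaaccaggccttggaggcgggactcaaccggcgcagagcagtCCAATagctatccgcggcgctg
Mcm6 (chr1:128359706-128359905, - strand): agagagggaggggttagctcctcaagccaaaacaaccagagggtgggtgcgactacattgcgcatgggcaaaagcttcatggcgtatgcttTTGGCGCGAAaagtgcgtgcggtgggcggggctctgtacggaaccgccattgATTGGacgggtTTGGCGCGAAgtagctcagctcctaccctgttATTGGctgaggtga
Mcm2 (chr6:88898781-88898980, - strand): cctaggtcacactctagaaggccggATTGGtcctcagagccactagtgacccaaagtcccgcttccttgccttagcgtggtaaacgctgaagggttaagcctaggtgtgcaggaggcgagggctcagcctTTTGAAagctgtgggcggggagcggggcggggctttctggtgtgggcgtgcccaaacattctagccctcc
Pcna (chr2:132253181-132253380, - strand): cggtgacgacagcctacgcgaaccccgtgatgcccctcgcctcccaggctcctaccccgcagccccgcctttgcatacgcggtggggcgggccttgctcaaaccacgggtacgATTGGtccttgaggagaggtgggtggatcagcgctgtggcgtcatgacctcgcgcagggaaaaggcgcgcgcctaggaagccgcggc
Mki67 (chr7:135716380-135716579, - strand): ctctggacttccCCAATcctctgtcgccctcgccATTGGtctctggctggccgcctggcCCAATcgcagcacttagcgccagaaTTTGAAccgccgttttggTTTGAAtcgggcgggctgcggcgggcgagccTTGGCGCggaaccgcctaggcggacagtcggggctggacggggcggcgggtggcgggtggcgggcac
Top2a (chr11:99024190-99024389, - strand): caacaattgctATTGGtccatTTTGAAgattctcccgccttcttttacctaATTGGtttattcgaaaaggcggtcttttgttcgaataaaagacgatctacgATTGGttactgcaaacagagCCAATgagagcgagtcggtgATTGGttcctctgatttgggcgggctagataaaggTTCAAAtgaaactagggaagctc
Cdk1 (chr10:69352913-69353112, - strand): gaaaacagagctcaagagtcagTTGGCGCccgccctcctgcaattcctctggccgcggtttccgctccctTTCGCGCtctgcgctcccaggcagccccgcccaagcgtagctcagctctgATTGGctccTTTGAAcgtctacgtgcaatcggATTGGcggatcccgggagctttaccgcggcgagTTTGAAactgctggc
Ccnb1 (chr13:100786487-100786686, - strand): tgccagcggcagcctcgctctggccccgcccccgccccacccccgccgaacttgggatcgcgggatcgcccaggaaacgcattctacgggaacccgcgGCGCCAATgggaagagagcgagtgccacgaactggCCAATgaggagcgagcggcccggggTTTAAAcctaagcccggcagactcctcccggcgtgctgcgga
Cks1b (chr3:89418292-89418491, - strand): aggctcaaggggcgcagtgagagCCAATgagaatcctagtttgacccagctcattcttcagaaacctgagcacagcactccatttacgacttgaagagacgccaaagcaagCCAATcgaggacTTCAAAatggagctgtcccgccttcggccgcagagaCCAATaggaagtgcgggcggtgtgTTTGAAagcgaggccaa

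A promoter of 300 bases (250 before to 50 after the start site) was found for 45 of the 57 members. E2F-type letters stood in 11 of 19 replication promoters (57.9%), in 3 of 21 mitosis promoters (14.3%) and in 9.69% of the 27025 promoters in the table. CHR letters had the reverse order, with 3 of 19 replication promoters (15.8%), 15 of 21 mitosis promoters (71.4%) and 18.1% of all promoters. In wider lists of genes outside the 57, the classes differed less in E2F-type letters. These stood in 21 of 40 other replication promoters (52.5%) and 17 of 54 other mitosis promoters (31.5%). CHR letters stood in 6 of 40 (15%) and 35 of 54 (64.8%) of these. CCAAT boxes were common in both classes, in 68.4% of replication and 90.5% of mitosis promoters against 37.9% of all. The CHR variant stood in 15.8%, 33.3% and 13.2% in the same order. Among the sequences shown, the Mcm5 and Mcm6 promoters hold E2F-type letters and no CHR, the Top2a and Cks1b promoters hold CHR and no E2F-type letters, and Cdk1 and Mki67 hold both. Mcm2, a replication gene, holds CHR and no E2F-type letters, Ccnb1 holds E2F-type letters and the CHR variant, and Pcna holds a single CCAAT box. A match is a description of these letters and not a bound site.

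**Figure D1:**
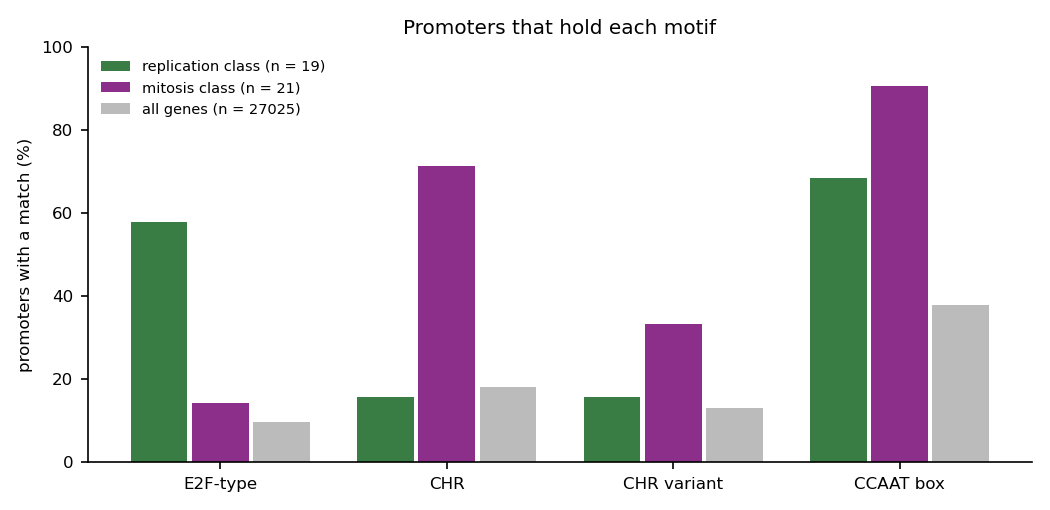
Share of promoters (%, 300 bases) that hold each kind of letters, for 19 replication genes, 21 mitosis genes and all 27025 promoters in the table. E2F-type letters are most frequent in replication promoters (57.9%) and CHR letters in mitosis promoters (71.4%).

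Library totals ran from 33.6 to 67.6 M counts. Lta4h stood at 79.4 to 104 CPM (counts relative to the TMM-adjusted total of each library) in the 8 Ctrl libraries and at 239 to 427 CPM in the 8 OE libraries, with no overlap. Several libraries stood apart. Library 1 of Ctrl and library 1 of OE at 8 weeks separated from the others on the second principal component, library 4 of Ctrl and library 2 of OE at 8 weeks held transcripts of the epididymal duct (summed epithelial markers of 4094 and 2702 CPM), and library 1 of OE at 20 weeks lay apart from the other 20-week libraries on the first component. Counts and class medians of each comparison are given with and without these 5 libraries, an exclusion chosen after the data had been seen. At 8 weeks it leaves only libraries 2 and 3 of Ctrl and libraries 3 and 4 of OE. Library 1 of Ctrl and library 1 of OE at 8 weeks also lay apart on the first component. There they were shifted from the other 8-week libraries toward the side of the 20-week libraries.

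In Ctrl mice, RNA of the cell division genes was higher at 20 than at 8 weeks across nearly the whole set. Of the 57 members, 51 rose and 1 fell, and 5 did not pass the test (edgeR quasi-likelihood, Benjamini-Hochberg adjusted over all genes tested). Over all genes, 40.9% passed the test in this comparison, 19.6% upward and 21.3% downward. The median log2 fold change was 1.25 over the replication class, 1.54 over the mitosis class, 0.83 over the regulators and -0.05 over all genes tested. In 51 members each of the 4 libraries at 20 weeks lay above each of the 4 at 8 weeks, a separation found upward in 18.5% of all genes and in either direction in 33.2%. Without the 5 libraries that stand apart, 52 members rose and 1 fell, with medians of 1.25 and 1.61 for the replication and mitosis classes. Over all genes 4357 were then called higher and 4713 lower (46.2% called), against 3770 and 4083 with all libraries.

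Pcna, the sliding clamp that holds DNA polymerase on the template, had the smallest p of the 57 in both age comparisons and the highest TPM (a share of transcripts that takes gene length into account). It stood at 61.7, 46.4, 53.9 and 50.3 CPM in the 4 Ctrl libraries at 8 weeks and at 133, 163, 169 and 111 CPM at 20 weeks. The lowest 20-week library lay well above the highest 8-week library. The log2 fold change was 1.44 ± 0.17 (SE), which is 2.71-fold with a 95% interval of 2.1 to 3.51 (adjusted p = 6.89e-05, edgeR), and the two-sided exact permutation test over the 8 libraries gave p = 0.0286, the smallest it allows.

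Among the 13 genes of origin licensing and helicase activation, 12 rose. Cdt1, which loads the helicase on origins and is destroyed once replication begins, had 4.86, 4.97, 4.81 and 4.72 CPM in Ctrl at 8 weeks and 15.3, 26.5, 28.0 and 15.1 CPM at 20 weeks. Its 8-week values were nearly identical between libraries, while at 20 weeks libraries 2 and 3 stood above libraries 1 and 4. Cdt1 rose 4.39-fold (log2 2.13 ± 0.27, adjusted p = 9.59e-05), the largest change of the licensing genes. Mcm10, which helps to activate the helicase, followed with 2.55, 1.66, 1.56 and 2.56 CPM at 8 weeks, 5.30, 8.10, 10.1 and 7.11 CPM at 20 weeks and a log2 fold change of 1.88 ± 0.28.

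The ring subunits of the helicase all rose, with log2 fold changes from 0.66 to 1.53. Mcm6 went from 24.1, 19.6, 28.1 and 23.1 CPM to 62.4, 77.9, 81.3 and 53.5 CPM (log2 1.53 ± 0.20, adjusted p = 9.11e-05). Mcm5 went from 19.5, 10.8, 16.0 and 15.1 CPM to 35.1, 50.8, 49.4 and 35.4 CPM (1.48 ± 0.21). For both genes the groups were far apart, with libraries 2 and 3 the highest at 20 weeks. Mcm2 stood at 15.1, 13.5, 17 and 13.5 CPM at 8 weeks and 27.3, 38.1, 38.6 and 30.1 CPM at 20 weeks (1.18 ± 0.17). Mcm4 stood at 19.7, 15.6, 19.2 and 19.1 CPM at 8 weeks and 31.3, 34.2, 37.3 and 30.1 CPM at 20 weeks (0.85 ± 0.12). Mcm7 had the smallest change of the ring, 0.66 ± 0.11 (95% interval 0.43 to 0.90), which lies below the interval of Mcm6 (1.12 to 1.95), although these transcripts encode subunits of the same ring. The difference between subunits was not itself tested. Mcm3 (1.37), Cdc6 (1.15), the licensing inhibitor Gmnn (1.36), Gins1 (1.05) and Gins2 (0.58) also rose.

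Cdc45, which joins the Mcm ring and the Gins proteins in the active helicase, was the exception. It stood at 8.84, 9.61, 9.66 and 6.55 CPM in Ctrl at 8 weeks and at 7.01, 9.69, 9.07 and 8.47 CPM at 20 weeks. The groups overlapped throughout, and the log2 difference was -0.02 ± 0.14 with a 95% interval of -0.31 to 0.27 (adjusted p = 0.934). The Ctrl interval did not reach the change of any helicase ring subunit in Ctrl. In OE the difference was -0.00 ± 0.14 (-0.29 to 0.29). There the ring subunit Mcm7 missed the threshold as well, so Cdc45 was not set apart from every ring subunit in OE. In the RefSeq annotation Cdc45 overlaps Ufd1 by 237 bases and a noncoding gene by 1687 bases, and the strand setting of the counting was not given in the sources used here.

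Of 7 genes that build DNA at the fork, Pcna included, 6 rose. Fen1, the nuclease that trims the primers of the lagging strand, stood at 8.18, 8.10, 10.2 and 8.93 CPM at 8 weeks and 18.8, 25.1, 26.9 and 17 CPM at 20 weeks (1.31 ± 0.18, adjusted p = 1.40e-04). Uhrf1, which carries DNA methylation through replication, had a log2 fold change of 1.42, and Lig1, which seals the nicks, one of 1.38. The polymerase subunits had smaller fold changes. Pole had 0.99 and Pola1 0.50, the latter with overlapping groups because library 4 at 8 weeks (17.4 CPM) lay among the 20-week values (16.8 to 18.2 CPM). The Pola1 call was lost when any 1 of 7 libraries was left out, with an adjusted p of up to 0.0993. Prim1, the primase subunit, had 0.54 ± 0.23 and missed the threshold (adjusted p = 0.0745).

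Genes of nucleotide supply rose in 4 of 4 cases and held the largest change of the replication class. Tk1, the salvage thymidine kinase, stood at 5.36, 3.89, 6.94 and 5.17 CPM at 8 weeks and 23.5, 28.5, 34.0 and 22.0 CPM at 20 weeks. Its log2 fold change of 2.34 ± 0.32 (5.06-fold, adjusted p = 1.43e-04) was the largest of the 57 members. Rrm2, the cell-cycle-regulated subunit of ribonucleotide reductase, went from 7.25, 5.81, 7.39 and 8.50 CPM to 19.2, 24.9, 26.3 and 17.7 CPM (1.60 ± 0.24). Its partner Rrm1 changed by 0.94. Tyms, thymidylate synthase, changed by 0.60 ± 0.13, from 8.18, 7.69, 8.28 and 6.36 CPM to 11, 13.7, 11.8 and 9.72 CPM, and its interval (0.32 to 0.88) lies below that of Tk1 (1.65 to 3.03).

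Of the 8 regulators, 5 rose in Ctrl. The transcription factors E2f8 (1.43), Mybl2 (1.42), Foxm1 (1.29) and E2f1 (1.04) rose by more than 2-fold, and cyclin E2 (Ccne2) by 0.63, a call lost when any 1 of 5 libraries was left out. Cyclin E1 (Ccne1, 0.57 ± 0.24, adjusted p = 0.0743) and Cdk2, the kinase that both bind (0.23 ± 0.09, adjusted p = 0.0523), missed the threshold. Cdk2 overlaps its neighbour Pmel over 7114 bases in the RefSeq annotation. In all, 17 of the 57 members overlap another protein-coding gene there, and reads of the pair could not be separated here.

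Cyclin D1 (Ccnd1), which growth signals induce before replication starts, had the highest mean CPM of the 57 in Ctrl at 8 weeks. It stood at 95.6, 84.8, 129.7 and 135 CPM in Ctrl at 8 weeks and at 127, 175, 159 and 102 CPM at 20 weeks. The ranges overlapped in the middle, and the difference of 0.34 ± 0.24 (95% interval -0.18 to 0.86) did not pass the test (adjusted p = 0.271).

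**Figure D2:**
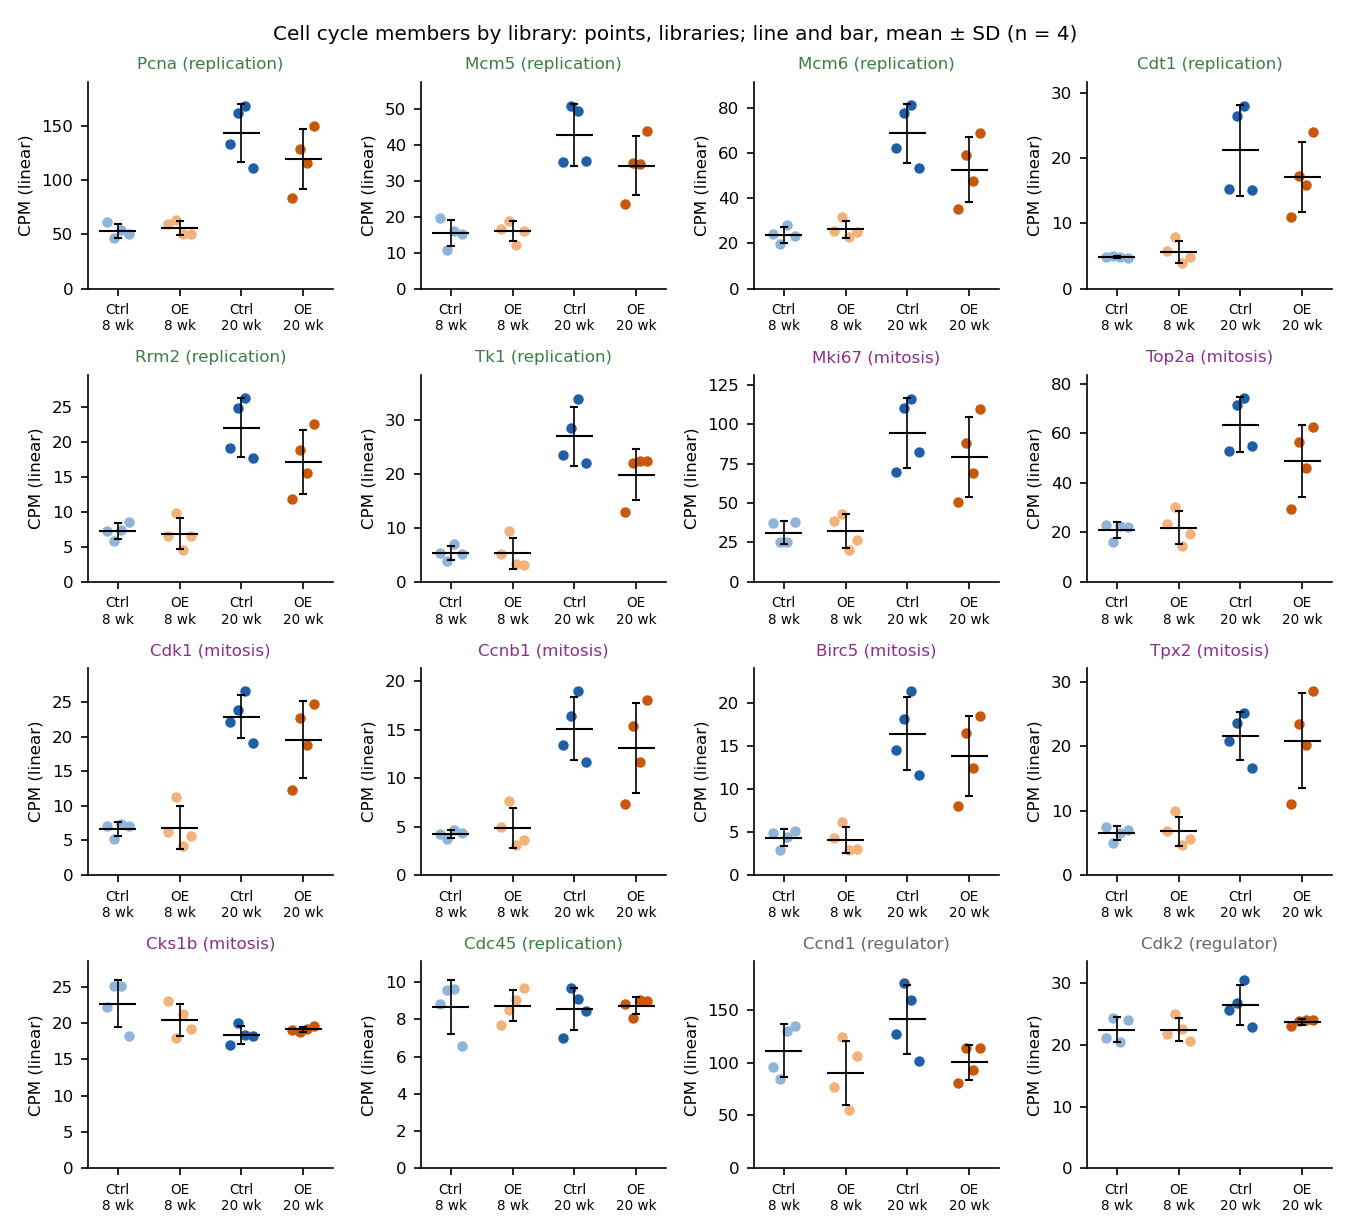
CPM (linear scale) of 16 members in each of the 16 libraries. Points are libraries, and the line and bar are the mean and SD of 4 libraries. In the upper 3 rows the Ctrl groups of 8 and 20 weeks do not overlap, whereas Cks1b, Cdc45, Ccnd1 and Cdk2 in the bottom row overlap between ages.

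In the mitosis class 24 of 25 members rose in Ctrl, each without overlap between the ages. Mki67, the chromosome coat protein used as the common marker of dividing cells, stood at 37.1, 25.1, 25.1 and 37.7 CPM at 8 weeks and at 70.0, 110.4, 116 and 82.1 CPM at 20 weeks. Every 20-week library exceeded the highest 8-week library, by a factor that varied with the library. Mki67 rose 3.03-fold (log2 1.60 ± 0.28, 95% interval 1.0 to 2.2, adjusted p = 6.70e-04). Top2a, the topoisomerase that untangles sister chromosomes, went from 22.8, 16.3, 22.7 and 22.3 CPM to 52.8, 71.5, 74.3 and 54.9 CPM (1.59 ± 0.24, adjusted p = 2.75e-04).

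Of the 10 cyclins, kinases and ubiquitin genes, 9 rose. Cdk1, the kinase that drives entry into mitosis, stood at 7.04, 5.18, 7.44 and 7.09 CPM at 8 weeks and 22.1, 23.9, 26.6 and 19.1 CPM at 20 weeks (1.78 ± 0.28). Its partner cyclin B1 (Ccnb1) stood at 4.25, 3.69, 4.69 and 4.30 CPM at 8 weeks and 13.4, 16.4, 19 and 11.7 CPM at 20 weeks (1.84 ± 0.30, 3.57-fold). For both genes the 8-week libraries lay close together and library 3 was the highest at 20 weeks. Cyclin A2 (Ccna2, 1.57), cyclin B2 (Ccnb2, 1.58), Plk1 (1.73) and Aurka (1.32) rose as well. Cdc20, which activates the anaphase-promoting complex, had 1.32, and Ube2c, a ubiquitin-conjugating enzyme of that complex, 1.27.

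Genes of the centromere, the checkpoint and the chromosomal passenger complex rose in 9 of 9 cases, with log2 fold changes from 1.26 to 1.96. Birc5 (survivin), a subunit of the passenger complex, went from 4.94, 2.92, 4.38 and 5.14 CPM to 14.5, 18.2, 21.4 and 11.7 CPM (1.92 ± 0.31, 3.78-fold). The kinetochore motor Cenpe (1.96 ± 0.36) and the checkpoint kinase Bub1 (1.93 ± 0.41) had the largest changes of the class and also its widest errors. The spindle and cytokinesis genes rose in 6 of 6 cases, from 1.10 for the microtubule-binding protein Nusap1 to 1.73 for the motor Kif20a. Tpx2, which activates Aurka on the spindle, had 7.52, 4.99, 6.60 and 7.04 CPM at 8 weeks and 20.9, 23.6, 25.2 and 16.7 CPM at 20 weeks (1.72 ± 0.28).

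Cks1b, a small protein that binds cyclin-dependent kinases, was the mitosis member that did not rise. It stood at 22.3, 25.2, 25.1 and 18.2 CPM in Ctrl at 8 weeks and at 17, 20.0, 18.3 and 18.3 CPM at 20 weeks. The groups overlapped through library 4 at 8 weeks, and the log2 fold change was -0.30 ± 0.10 (adjusted p = 0.0309), which ended when any 1 of 5 Ctrl libraries was left out (adjusted p up to 0.0929). Its paralog Cks2 rose by 0.97 ± 0.23. The Cks1b promoter holds CHR letters at 2 positions and 4 CCAAT boxes within 300 bases, and the promoter of Top2a, which rose, also holds CHR letters at 2 positions. RefSeq lists a copy of Cks1b, Cks1brt, and 5 other members (Pcna, Tyms, Ccnb1, Ccnb2 and Aurkb) have copies that are pseudogenes. Whether reads were shared with these copies was not tested, so the levels of these 6 members are less certain.

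**Figure D3:**
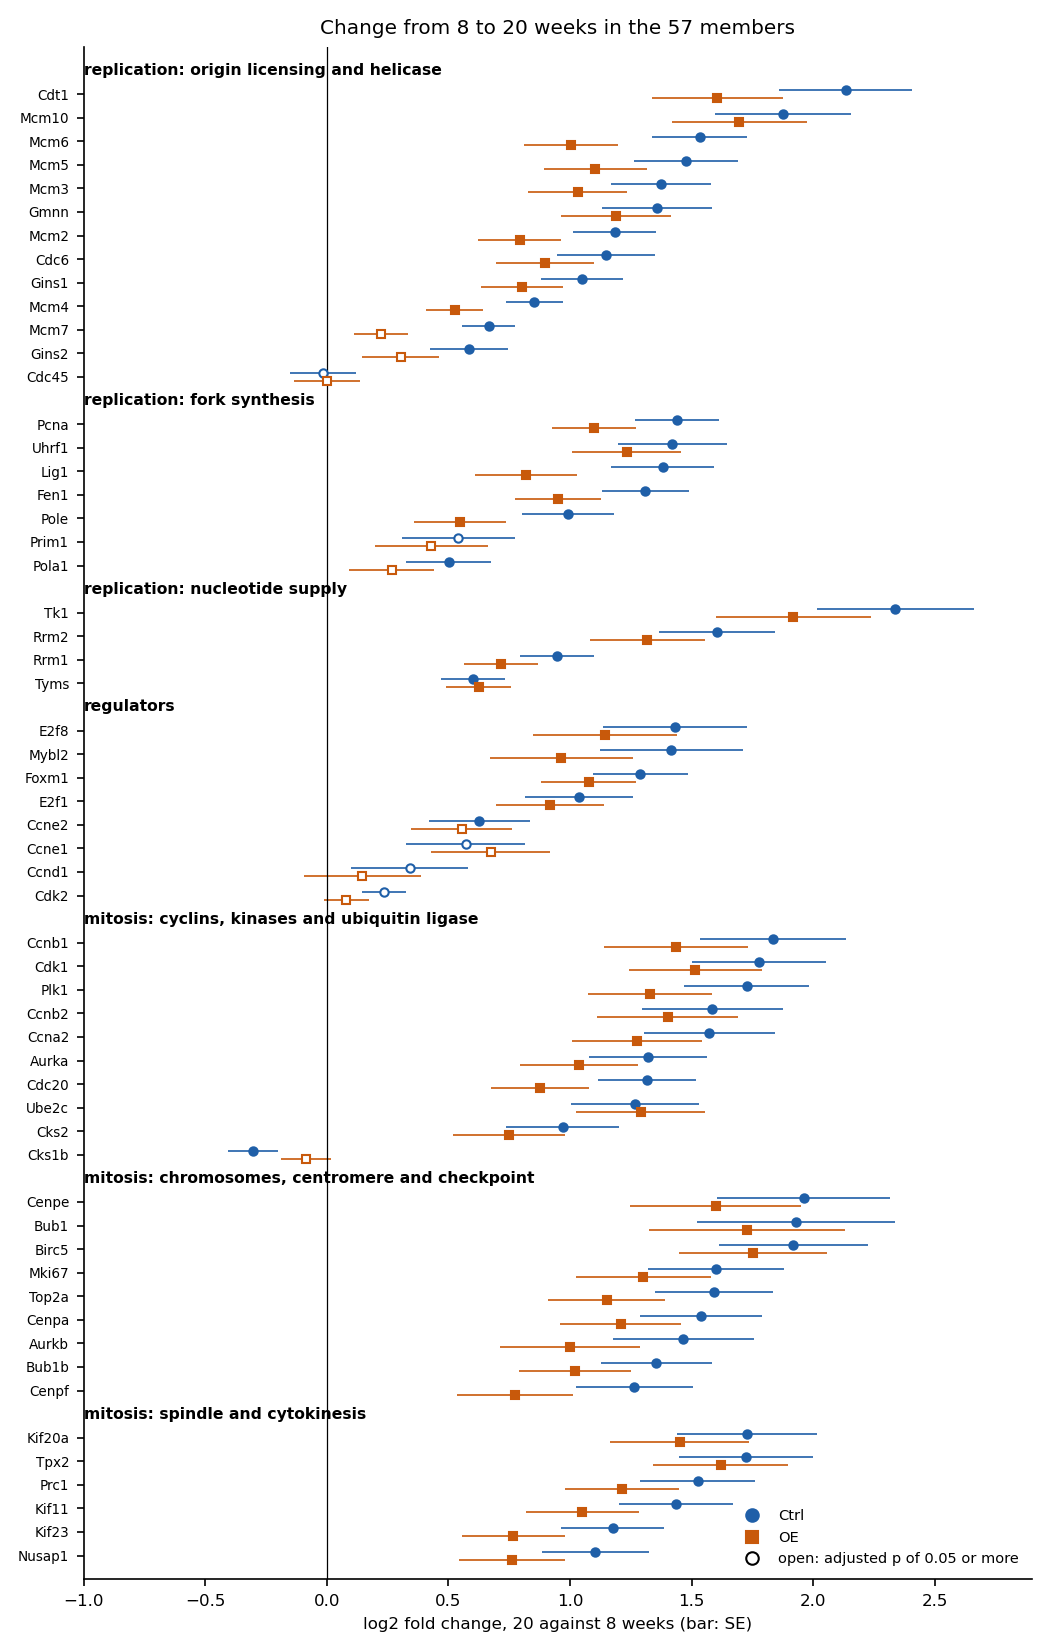
Log2 fold change from 8 to 20 weeks (x axis, bar: SE) for each of the 57 members by role, in Ctrl (circles) and OE (squares). Filled symbols passed an adjusted p of 0.05. All but 2 members lie above 0 in both genotypes, and Cdc45 and Cks1b lie below 0.

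Members grouped by their promoter letters had medians close to each other, and no test was made between these groups. In Ctrl the median log2 fold change was 1.37 over 13 members with E2F-type letters and no CHR, 1.32 over 16 members with CHR and no E2F-type letters, 1.60 over 3 with both and 1.42 over 13 with neither. The ranges were wide, from 0.23 to 2.13 in the first group and from -0.30 to 1.73 in the second. In OE the same medians were 1.0, 1.03, 1.30 and 0.96.

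In OE mice, 47 of the 57 members rose from 8 to 20 weeks and 10 did not pass the test, where 23% of all genes passed the test (13.1% upward and 9.91% downward). The median log2 fold change was 0.86 over the replication class (19 of 24 called), 1.21 over the mitosis class (24 of 25 called) and 0.79 over the regulators (4 of 8 called). In 36 members each 20-week library lay above each 8-week library, against 12.9% of all genes, with 9.5% separated downward. Without the 5 libraries that stand apart, 52 members rose, with medians of 1.15 and 1.77 for the replication and mitosis classes. Only libraries 3 and 4 of OE then remained at 8 weeks. Calls over all genes rose as well under this exclusion, to 3707 higher and 3671 lower (37.6% called) from 2509 and 1902.

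Pcna had 59.4, 63.0, 50.1 and 50.8 CPM in OE at 8 weeks and 83.3, 129, 116 and 149.9 CPM at 20 weeks (1.10 ± 0.17, adjusted p = 8.47e-04). Tk1 had 5.15, 9.40, 3.34 and 3.19 CPM at 8 weeks and 12.9, 22.1, 22.4 and 22.3 CPM at 20 weeks (1.92 ± 0.32). The first OE library at 20 weeks was the lowest of its group for both genes, and for Tk1 the other three lay between 22.1 and 22.4 CPM. Cdt1 had 5.75, 7.95, 3.90 and 4.85 CPM at 8 weeks and 11, 17.3, 15.9 and 24 CPM at 20 weeks (1.61 ± 0.27), and Mcm10 had 1.96, 2.48, 1.51 and 2.01 CPM at 8 weeks and 4.20, 8.47, 5.19 and 7.96 CPM at 20 weeks (1.70 ± 0.28). Rrm2 went from 6.61, 9.89, 4.5 and 6.55 to 11.8, 18.8, 15.6 and 22.6 CPM (1.32 ± 0.24). For each of these genes the 20-week libraries lay above the 8-week libraries. Mcm6 had 25.4, 31.6, 23.0 and 25.1 CPM at 8 weeks and 35.1, 59.1, 47.8 and 68.8 CPM at 20 weeks (1.0 ± 0.19), and Mcm5 16.5, 18.8, 12.2 and 16.0 CPM at 8 weeks and 23.6, 34.9, 34.7 and 43.7 CPM at 20 weeks (1.10 ± 0.21), again without overlap.

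Mki67 had 38.4, 43.3, 20.1 and 26.7 CPM in OE at 8 weeks and 50.3, 87.8, 69.2 and 109.5 CPM at 20 weeks (1.30 ± 0.28, adjusted p = 0.00467). Top2a had 23.5, 30.0, 14.6 and 19.4 CPM at 8 weeks and 29.3, 56.6, 46.1 and 62.5 CPM at 20 weeks (1.15 ± 0.24). The 20-week Top2a value of library 1 (29.33 CPM) lay below the 8-week value of library 2 (30.04 CPM), so the groups touched at 1 pair of libraries. Cdk1 (1.52 ± 0.27), Ccnb1 (1.44 ± 0.30), Birc5 (1.75 ± 0.31) and Tpx2 (1.62 ± 0.28) rose too. Tpx2 had 6.86, 9.94, 4.70 and 5.65 CPM at 8 weeks and 11.1, 23.5, 20.3 and 28.6 CPM at 20 weeks, and Birc5 4.31, 6.20, 2.96 and 3.01 CPM at 8 weeks and 8.08, 16.5, 12.4 and 18.5 CPM at 20 weeks.

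The 10 members that missed the threshold in OE were Ccne1, Ccne2, Ccnd1, Cdk2, Mcm7, Gins2, Prim1, Pola1, Cdc45 and Cks1b. Their log2 differences ran from -0.09 (Cks1b) to 0.67 (Ccne1). Calls of Aurkb, Cenpf, Cks2, Kif23, Mybl2, Nusap1 and Pole in OE were lost when 1 of several libraries was left out, with the adjusted p then reaching between 0.0641 (Kif23) and 0.152 (Pole). The number of members called in OE ran from 40 to 49 over the 16 exclusions of a single library.

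Levels of the 2 classes were compared on the authors' TPM, which takes gene length into account. The replication class had a mean of 11.5 ± 1.38 TPM per gene in Ctrl at 8 weeks (SD, n = 4), 12.1 ± 2.71 in OE at 8 weeks, 30.1 ± 5.46 in Ctrl at 20 weeks and 24 ± 5.27 in OE at 20 weeks. The mitosis class had 7.49 ± 0.624, 7.48 ± 2.09, 17.2 ± 2.92 and 14.6 ± 3.77 TPM per gene in the same order. The ages did not overlap in either class in Ctrl or in the replication class in OE, whereas in OE the mitosis class of library 1 at 20 weeks (9.84 TPM per gene) lay below that of library 2 at 8 weeks (10.3). Replication genes stood above mitosis genes in each of the 16 libraries.

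**Figure D4:**
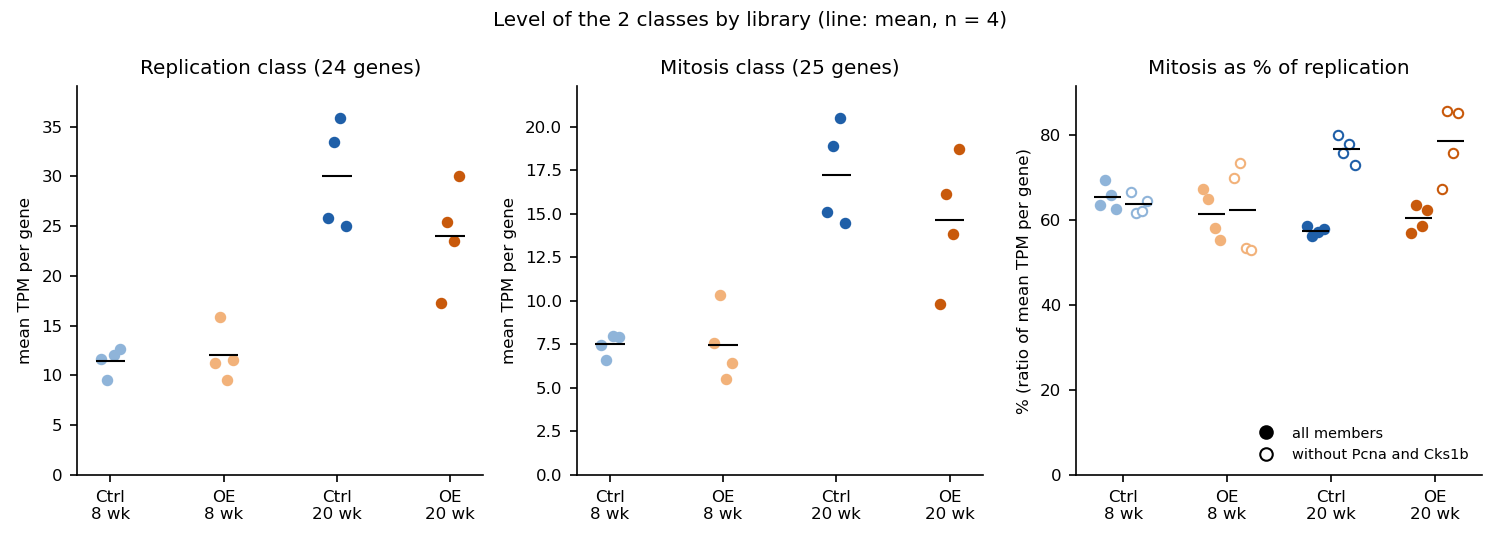
Mean TPM per gene of the replication class (left) and the mitosis class (middle) by library, and the mitosis class as a percent of the replication class (right), with lines at the mean of 4 libraries. Filled points use all members and open points leave out Pcna and Cks1b. With all members the mean percent is lower at 20 weeks than at 8 weeks in both genotypes, and without those 2 it is higher.

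The direction of the balance between the 2 classes depended on which genes were summed. With all members, mitosis genes stood at 65.4% ± 3.08 of the replication genes in Ctrl at 8 weeks, 61.5% ± 5.60 in OE at 8 weeks, 57.5% ± 0.927 in Ctrl at 20 weeks and 60.4% ± 3.07 in OE at 20 weeks. Pcna alone averaged 157 TPM and Cks1b 55.7 TPM, the highest of their classes, and one rose while the other did not. Without them the percentages were 63.8, 62.5, 76.7 and 78.6, so the direction with age turned. With the regulators placed in the 2 classes they were 57, 56, 56.9 and 59.9, so that the Ctrl means were nearly alike at the 2 ages and the OE mean was higher at 20 weeks, with overlapping libraries. On the mean log2 CPM scale, where each gene counts alike, mitosis minus replication was -0.53 ± 0.05 in Ctrl at 8 weeks, -0.55 ± 0.23 in OE at 8 weeks, -0.26 ± 0.06 in Ctrl at 20 weeks and -0.25 ± 0.14 in OE at 20 weeks. The Ctrl libraries did not overlap between the ages on that scale (-0.58 to -0.47 against -0.34 to -0.21). The OE libraries did overlap (-0.76 to -0.30 against -0.44 to -0.13).

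At 8 weeks, no difference between OE and Ctrl mice in these genes passed the test. None of the 57 members passed the test in either direction with edgeR, where 0.0208% of all genes did. None had an unadjusted p under 0.05 in edgeR or DESeq2 and 1 did with limma voom, and DESeq2 and voom called none of the members. Among all genes, DESeq2 called 10 higher and 5 lower, and limma voom 10 and 2. Over all 19189 genes tested, 424 had an unadjusted p under 0.05 in edgeR. No member separated the groups fully, against 1.24% of all genes (0.448% downward). The members with the smallest p were Cks1b, with 23.1, 18, 21.2 and 19.3 CPM in OE (-0.15 ± 0.10, exact permutation p = 0.286), and Tyms, with 7.73, 6.60, 5.59 and 7.10 CPM (-0.17 ± 0.13).

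The OE libraries at 8 weeks had a larger spread (SD of 2.09 TPM per gene in the mitosis class) than the Ctrl libraries (0.624). Of the 57 members, 47 were highest in OE library 2 and 43 were lowest in OE library 3 within their group. Library 2 was one of the pair with the most epididymal transcripts and had the highest macrophage marker sum at that age (3021 CPM), and the part of either in these values was not tested. The median log2 difference was 0.02 over the replication class and 0.04 over the mitosis class with 35 members positive, and -0.05 and -0.18 with 14 positive when OE library 2 was left out. The exclusion of OE library 3 moved the difference the other way, to 48 positive with medians of 0.08 and 0.19, and 40 were positive without OE library 4. Without Ctrl library 2 at 8 weeks, 22 members were positive. Without the 5 libraries that stand apart, 13 were positive, with medians of -0.11 and -0.27, 5 members had an unadjusted p under 0.05 and none was called (0.0305% of all genes called). That exclusion takes out OE library 2 and keeps OE library 3, so its values depend on which libraries remain. For Mki67 the 95% interval of the OE to Ctrl difference at 8 weeks was -0.55 to 0.63 and for Pcna -0.29 to 0.44, so the libraries leave room for a difference in either direction within these bounds.

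At 20 weeks most members were lower in OE than in Ctrl, but none passed the test (edgeR, 0.0261% of all genes called). The log2 difference was negative in 54 of 57, with medians of -0.30 over the replication class, -0.26 over the mitosis class and 0.02 over all genes. An unadjusted p under 0.05 was found for 2 members with edgeR, 3 with DESeq2 and 29 with limma voom, and each of these tools called none of the members after adjustment. Counts over all genes at an unadjusted p were not made with DESeq2 or limma voom, so the 29 members have no share to be set against. After adjustment DESeq2 called 40 of all genes higher and 20 lower, and limma voom 14 and 6. Over all 19189 genes tested, 762 had an unadjusted p under 0.05 in edgeR. No member separated the groups fully, against 2.73% of all genes (1.49% downward). Several lists of cell type markers lay mostly on 1 side in the same comparison, although none of those named here passed the test. Macrophage markers were lower in OE in 10 of 10 cases (median -0.31), mast cell markers in 6 of 6 (-1.07), B and plasma cell markers in 7 of 7 (-2.61), mesothelial markers in 6 of 6 (-1.22) and T cell markers in 7 of 8 (-0.94). Mature adipocyte markers were higher in OE in 10 of 10 cases (0.38) and endothelial markers in 7 of 7 (0.25). Erythroid markers were higher in 6 of 6 (0.37) and smooth muscle and pericyte markers in 6 of 7 (0.47). Other lists were split. Stromal progenitor markers were higher in 4 and lower in 4 (-0.02), lipid-associated macrophage markers higher in 3 and lower in 5 (-0.11). Neutrophil markers were higher in 3 and lower in 2 (0.24). The part of these markers in the values of the members was not tested.

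Mcm7 had the smallest p, with 34.2, 44.4, 44 and 34.5 CPM in Ctrl and 27.5, 28.2, 33.3 and 36.6 CPM in OE. The 2 highest Ctrl libraries exceeded each OE library, while the others overlapped, and the log2 difference was -0.32 ± 0.11 (adjusted p = 0.996 in edgeR, exact permutation p = 0.114). Mcm2 had 27.3, 38.1, 38.6 and 30.1 CPM in Ctrl and 20.5, 27.7, 23.7 and 32.1 CPM in OE (-0.37 ± 0.17, exact permutation p = 0.143). Ccnd1 had 127, 175, 159 and 102 CPM in Ctrl and 80.3, 114, 92.9 and 114 CPM in OE (-0.49 ± 0.24). At 8 weeks it stood at 77.2, 124, 55.5 and 106 CPM in OE, overlapping Ctrl (84.8 to 135 CPM). Averaged over both ages Ccnd1 was the only member with an unadjusted p under 0.05 in edgeR (-0.39 ± 0.17). Over all 19189 genes tested, 389 had such a p on that average, and 0.0365% were called. On that average DESeq2 also gave 1 such member and limma voom 3, and no member was called by any of the 3 tools. Among all genes, DESeq2 called 30 higher and 3 lower there, and limma voom 10 and 0. E2f8, a repressor of E2F targets, followed with an average difference of -0.36 ± 0.21. It stood at 2.71, 1.94, 2.97 and 3.6 CPM in Ctrl and 2.16, 3.31, 1.33 and 2.88 CPM in OE at 8 weeks, and at 5.13, 8.23, 9.65 and 7.30 CPM in Ctrl and 3.63, 5.19, 5.81 and 6.79 CPM in OE at 20 weeks.

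The size of the 20-week shift depended on single libraries. OE library 1 was the lowest of the 8 libraries of that age for 53 of the 57 members. Pcna stood at 83.3 CPM in it against 111 to 169 CPM in the other seven, and Mki67 at 50.3 CPM against 69.2 to 116 CPM. Its macrophage markers summed to 3456 CPM against 5072 to 8138 CPM in the others, and its adipocyte markers to 23476 CPM against 9800 to 18096 CPM, and the part of these in the result was not tested. Without it the medians were -0.16 over the replication class and -0.09 over the mitosis class, with 50 members still negative. Without OE library 4 they were -0.40 and -0.44, with 55 negative and 9 members at an unadjusted p under 0.05, and over the 16 exclusions of a single library no member was called. Without the 5 libraries that stand apart the medians were -0.16 and -0.09 with 51 negative, and none had an unadjusted p under 0.05 (0.0255% of all genes called). On the average of both ages this exclusion gave 53 negative, as with all libraries, medians of -0.13 and -0.17, and 4 members at an unadjusted p under 0.05 (0.0458% of all genes called). For Mki67 the 95% interval of the OE to Ctrl difference with all libraries was -0.84 to 0.33 and for Pcna -0.63 to 0.09.

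**Figure D5:**
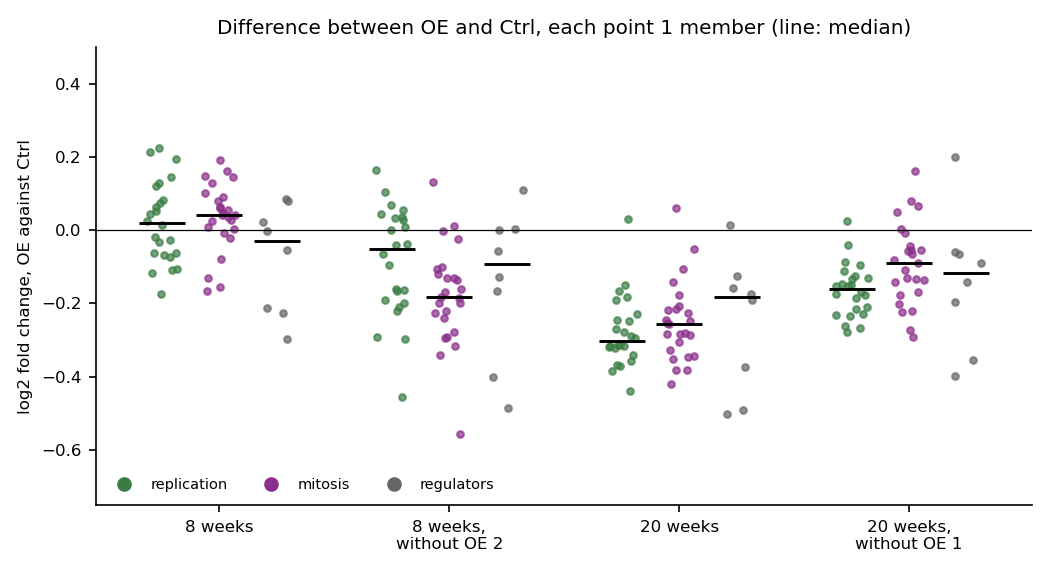
Log2 difference between OE and Ctrl (y axis) for each member, at 8 and 20 weeks with all libraries and without 1 OE library each, with lines at the class medians. At 20 weeks 54 of 57 points lie below 0, and the medians move toward 0 without OE library 1.

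The rise with age was smaller in OE than in Ctrl for 52 of 57 members, with a median log2 difference of -0.29, but the interaction of genotype and age passed the test for none of them, nor for any gene (0% called, edgeR). Mcm7 alone of the members had an unadjusted p under 0.05 (-0.44 ± 0.16, adjusted p = 0.982 in edgeR), followed by Mcm4 (-0.33 ± 0.16). Over all 19189 genes tested, 650 had an unadjusted p under 0.05 in edgeR. DESeq2 also gave 1 such member and limma voom 5, and neither called any member. Among all genes, DESeq2 called 20 higher and 10 lower in the interaction, whereas limma voom called 0. Mcm4 stood at 17.7, 21.4, 19.1 and 19.7 CPM in OE at 8 weeks and at 22.3, 31.5, 26.7 and 31.6 CPM at 20 weeks, with library 1 the lowest. Without the 5 libraries that stand apart, 35 members were positive and 22 negative, with medians of -0.06 and 0.20 for the replication and mitosis classes, 3 members at an unadjusted p under 0.05 and none called (0.00509% of all genes).

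Genes of the same machinery outside the 57 also rose with age. Over all genes, 19.6% rose and 21.3% fell in Ctrl, and 13.1% rose and 9.91% fell in OE. Of 64 other mitosis genes, 59 rose and 1 fell in Ctrl from 8 to 20 weeks, with a median log2 fold change of 1.43, and 55 rose in OE. The passenger complex scaffold Incenp (1.59 ± 0.18, adjusted p = 4.95e-05) and the spindle protein Dlgap5 (2.02 ± 0.25) had the smallest p, and Pttg1 (securin), the inhibitor of sister separation, fell by 0.61 on the log2 scale (adjusted p = 9.48e-04). Of 48 other replication genes, 32 rose and 3 fell in Ctrl, with a median of 0.60, and 24 rose and 2 fell in OE. Pold1, the catalytic subunit of the lagging-strand polymerase (1.0 ± 0.12), the clamp loader subunit Rfc3 (0.85 ± 0.11) and the maintenance methyltransferase Dnmt1 (1.18 ± 0.16) led the genes that rose, while the origin recognition subunit Orc6 (-0.49 ± 0.11), Pole4 (-0.47 ± 0.12) and Pold2 (-0.31 ± 0.10) fell.

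Of 21 genes on a list of cell cycle brakes, 7 rose and 3 fell in Ctrl, where 19.6% of all genes rose and 21.3% fell. Their median log2 fold change was 0.04, against -0.05 over all genes, so the list as a whole stayed near all genes. Cdkn2a, which encodes the p16 and p19 proteins and rises in ageing tissue, had 2.12 ± 0.41 (adjusted p = 0.00131), and Lin9, a subunit of the MuvB complex that sits on CHR elements, had 1.20 ± 0.18. The inhibitor Cdkn2c fell by 1.45 ± 0.25 on the log2 scale (adjusted p = 6.39e-04). The kinase inhibitor Cdkn1c (-0.54 ± 0.16) and the MuvB subunit Lin52 (-0.59 ± 0.11) fell as well. Since B-Myb and Foxm1 also act through CHR elements, a change in Lin9 or Lin52 cannot be read as a change in a brake alone.

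Cell type markers moved with age beside the cell division genes. The shares over all genes were 19.6% upward and 21.3% downward in Ctrl, and 13.1% and 9.91% in OE. In Ctrl, 10 of 10 macrophage markers rose (median log2 fold change 1.99), with sums of 1382 to 2381 CPM at 8 weeks and 5072 to 8138 CPM at 20 weeks and none at 0. In OE, 9 of 10 rose, with sums of 1720 to 3021 CPM and 3456 to 7958 CPM. Mature adipocyte markers fell in 7 of 10 cases in Ctrl and 7 of 10 in OE, from sums of 23587 to 30523 CPM at 8 weeks to 9800 to 17409 CPM at 20 weeks in Ctrl, and endothelial markers fell in 6 of 7 cases in Ctrl and 1 of 7 in OE. Markers of lipid-associated macrophages rose in 7 of 8 cases in each genotype (medians 3.59 and 2.64). Mast cell markers rose in 5 of 6 cases in each genotype, and B and plasma cell markers rose in 6 of 7 cases in Ctrl and 0 of 7 in OE. Erythroid markers fell in 6 of 6 cases in Ctrl and 5 of 6 in OE, and smooth muscle and pericyte markers in 6 of 7 and 5 of 7. Mesothelial markers fell in 1 of 6 cases in Ctrl and 6 of 6 in OE, and markers of the epididymal epithelium in 3 and 2 of the 4 tested. Stromal progenitor markers rose in 2 of 8 cases in Ctrl and fell in 1 of 8 in OE, and T cell markers rose in 2 of 8 in each genotype. The counts of these 2 short lists are not far from the shares over all genes. Differences between the genotypes in these marker counts were not tested. The part of these shifts in the rise of the cell division genes was not tested.

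With 2 surrogate variables (axes of variation estimated from the libraries themselves) in the fit, 16 members rose in Ctrl, where 5.64% of all genes did. Of these, 12 were replication genes (Cdt1, Fen1, Gins1, Lig1, Mcm10, Mcm2, Mcm4, Mcm5, Mcm6, Pcna, Rrm2 and Tk1), 3 were mitosis genes (Cdc20, Cdk1 and Plk1) and 1 was Foxm1. The class medians in Ctrl were then 0.88 and 0.73 for replication and mitosis, the reverse of the order without the surrogate variables. In OE, 17 replication and 16 mitosis genes and 2 regulators rose with this fit, where 8.43% of all genes did, and the medians of 0.67 and 0.75 kept the order.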

How the data were processed

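RNA of epididymal fat was measured by stranded mRNA sequencing in 16 libraries, 4 per group. Per the submitters' processing notes, bcl2fastq 2.20.0, Trimmomatic, HISAT2 2.1.0 and StringTie 2.1.3b were used with the mouse build mm10, and the strand setting of the counting was not given in the sources used here. The authors deposited whole-number counts per gene, not normalized, which were used for all tests. The authors also deposited FPKM and TPM per gene, and the deposited TPM served to compare levels between genes. Groups came from the labels' titles and genotypes.

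Counts were filtered (filterByExpr, minimum count 10, 19189 of 45777 genes), scaled with TMM and tested with edgeR 4.0.16 (quasi-likelihood, robust, 4 groups in 1 fit, 12 residual degrees of freedom, R 4.3.3), with Benjamini-Hochberg adjustment over all genes tested and a threshold of 0.05. Errors of log2 fold changes are SEs from that test, and intervals are 95%. Library totals ran from 33.6 to 67.6 M counts. Alternatives were DESeq2 1.42.0, limma 3.58.1 voom with quality weights, DESeq2 size factors, no filter, only the groups compared, a replicate block, 2 surrogate variables (sva 3.50.0), each library left out, and 3 exclusions of libraries that stand apart, chosen after seeing the data. Under these alternatives, counts at an unadjusted p were made for the members only. For class levels the authors' FPKM was tried in place of TPM. Promoters came from RefSeq GRCm38.p6, in a table that held 45 of the 57 members, with the first start site listed for each gene.

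The 57 members and the other gene lists were chosen with earlier results of these data known. All members could be named. Values by library are given for 10 set members and for those of smallest adjusted p in each direction of the age comparisons. They are also given for the 2 of smallest p in each genotype comparison and the interaction. Not every group is printed for each of these members, and the OE values of Cdk1 and Ccnb1 are among those left out. Cdc45 and the OE values of further members were added after seeing the values.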

Additional observations from a re-analysis of the deposited data

Results flagged for a closer look

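Sets of 4 libraries were checked, each holding 1 named member or 1 class measure in TPM in 1 group. Of 96 such sets, 3 held a library far from the others by Dixon's criterion, where chance gives about 1 in 20. Mcm4, a subunit of the helicase ring, stood at 15.57 CPM in library 2 of Ctrl at 8 weeks against 19.1 to 19.73 CPM in the others. Top2a, the topoisomerase of chromosome separation, stood at 16.28 CPM in the same library against 22.34 to 22.76 CPM. Tk1, the salvage thymidine kinase, stood at 12.89 CPM in library 1 of OE at 20 weeks against 22.06 to 22.36 CPM. Library 2 of Ctrl at 8 weeks was the lowest of its group for 35 of the 57 members, and library 1 of OE at 20 weeks for 54.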

How the results depend on the processing

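The number of members that rose from 8 to 20 weeks was 49 to 52 in Ctrl and 40 to 49 in OE when any 1 library was left out. In Ctrl it was 16 with 2 surrogate variables. The single lower member in Ctrl (Cks1b) became 0 in the fit of the 2 Ctrl groups alone, in the replicate block and under 2 surrogate variables, and 0 to 1 without 1 library. Class medians with 2 surrogate variables were 0.88 (replication) and 0.73 (mitosis) in Ctrl and 0.67 and 0.75 in OE, and the interaction median of the mitosis class was 0.054. Without the 5 libraries that stand apart, the OE medians were 1.15 and 1.77, and the interaction medians -0.055 and 0.20. The cause was not tested. The 20-week genotype medians ran from -0.40 to -0.16 and from -0.44 to -0.09 without 1 library. The 8-week genotype medians ran from -0.05 to 0.08 (replication) and from -0.18 to 0.19 (mitosis) without 1 library, and the mitosis median was negative with limma voom (-0.07). Mitosis as a percent of replication was 57 (Ctrl) and 56 (OE) at 8 weeks and 56.9 and 59.9 at 20 weeks with the regulators placed in classes, and 76.7 (Ctrl) and 78.6 (OE) at 20 weeks without the highest member of each class.

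Of the results for single members under all alternatives, 8620 stayed on their side of the threshold, 125 lost the call, 33 gained it and 0 changed sign while called. Uncalled differences did change sign: between 11 and 48 of the 57 members were positive in the 8-week genotype comparison. Replicate numbers did not pair the libraries: correlations of same-numbered libraries ran from -0.60 to 0.83 over 24 pairs, those of other numbers from -0.64 to 0.69 over 72, and 2 of 16 libraries were closest to one of their own number. With the replicate block 50 members rose in Ctrl and 45 in OE. With 4 libraries a group, the exact permutation test cannot go below 0.0286.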
